A study of Homo sapiens with 6 samples.

Results

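Janus kinases (JAKs) and the STAT transcription factors were measured in K562, an established human cell line from chronic myeloid leukaemia that carries the BCR-ABL1 fusion. Of 9 genes considered (STAT2, STAT3, STAT4, STAT5A, STAT5B, STAT6, JAK1, JAK2 and JAK3), 8 had at least 1 Affymetrix probe set that the platform annotation gives to that symbol alone. These made 25 of the 54613 probe sets tested, 13 for STAT genes and 12 for JAK genes. The annotation used gives no probe set the symbol STAT2, which was not analysed here. Cells had been given calactin, a plant cardenolide, for 12 h at a labelled dose of 0.15 mM (3 arrays), and the others were left untreated for the same 12 h (3 arrays). The files hold no check of that dose or its unit, which is high for a cardenolide, and the labels name no vehicle. Every array came from the same line, and the labels call the 3 samples of a group biological replicates without saying whether they were separate cultures. If they were not, the p-values measure only technical spread.

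JAKs are tyrosine kinases bound to the inner tails of cytokine receptors. When a cytokine joins its receptor chains, the JAKs phosphorylate each other and the receptor, and STAT proteins dock there, are phosphorylated, pair up and enter the nucleus to bind DNA. SOCS proteins, products of STAT target genes, feed back on the receptor and its kinase. In BCR-ABL1 cells the fusion kinase is known to keep STAT5 phosphorylated without a cytokine. The arrays measured transcripts and say nothing of phosphorylation. In bulk RNA, a change in the number of cells that express a gene and a change in RNA per cell cannot be told apart.

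Signals are the authors' linear intensities, 1 per probe set and array. The median signal of the calactin arrays ran between 31.1 and 32.0, that of the untreated arrays between 33 and 34.3, so every calactin array lay slightly below every untreated one. Poly-A spikes, bacterial transcripts added to the RNA as controls, set replicate 3 of both groups apart: their mean log2 signals on replicates 1, 2 and 3 were 9.79, 10.15 and 6.38 with calactin and 10.34, 10.89 and 6.81 in untreated arrays. Of 10 erythroid and K562 genes measured, 7 were not called, among them embryonic globin HBE1, at 13173 with calactin and 13552 in untreated arrays (means, n = 3 each), and BCR, which was dimmer, at 214 and 272 in the same order. The erythroid regulator GATA1 fell (845 with calactin and 1554 in untreated arrays, log2 change -0.86 ± 0.18, limma adjusted p = 0.0121), as did TFRC, and TAL1 rose (4067 with calactin and 2147 in untreated arrays, 0.92 ± 0.10, adjusted p = 0.000754). Most markers of other cells were dim, but CD3D of T cells averaged 1703 with calactin and 2330 in untreated arrays. In the same order, LYZ of monocytes or macrophages averaged 679 and 806, and COL1A1 of fibroblasts 818 and 787. The summed signal of 8 T cell markers was between 1861 and 2022 with calactin and between 2333 and 2735 in untreated arrays, and the same order of groups gave 243 to 303 and 235 to 311 for 6 B cell markers, 805 to 920.0 and 945 to 1008 for 8 monocyte or macrophage markers, and 1038 to 1301 and 1129 to 1397 for 8 fibroblast markers. CD3D made up most of the T cell sums, LYZ of the monocyte or macrophage sums and COL1A1 of the fibroblast sums. The median log2 change of the 8 T cell markers was 0.09. CD3E (58.8 with calactin and 40.8 in untreated arrays) and CD5 (32.6 and 17.4) lay the other way from CD3D and were not called. Among the 8 fibroblast markers, COL1A2 fell (121 with calactin and 227 in untreated arrays, limma adjusted p = 0.0129) and 7 were not called. The part of these markers in the results below was not tested. CD14 averaged 10.3 with calactin and 5.81 in untreated arrays, below the array median. Of the 8 monocyte or macrophage markers, 3 lay above the median signal, LYZ among them.

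The bright probe sets of STAT3, STAT5A, STAT6 and JAK1 had log2 changes of -1.33 to -0.74 and were called lower with calactin, while no probe set of STAT5B, STAT4 or JAK3 was called. A probe set was called when limma's test on log2(signal + 16), adjusted by the Benjamini-Hochberg method over all 54613 probe sets, gave an adjusted p under 0.05. Fold changes are on that scale, which understates the change of dim probe sets. Bright and dim are relative words here, with no fixed cut. Of the 25 member probe sets, 9 were called lower and 0 higher by limma, where 10.3% of all probe sets tested were called lower and 3.68% higher. Without adjustment, 11 had a p under 0.05 as lower and 1 as higher. The share of all probe sets at that unadjusted threshold was not counted, here or for later unadjusted counts. The median log2 change was -0.21 over the 25 and -0.05 over all probe sets. Of the 20 members above the median signal, 9 were called lower and 0 higher, beside 19.2% and 6.97% of all such probe sets, and of the 5 dimmer ones limma called 0 in either direction. The 9 calls belong to 5 genes, and probe sets of a gene are not independent. In replicates 1 and 2 alone, a comparison chosen after the spikes had been seen, 3 of the 25 were called lower, beside 2.34% of all probe sets, and all 9 still had negative log2 changes, between -1.40 and -0.38. The plot of signals by array shows all 25, ordered by gene.

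**Figure D1:**
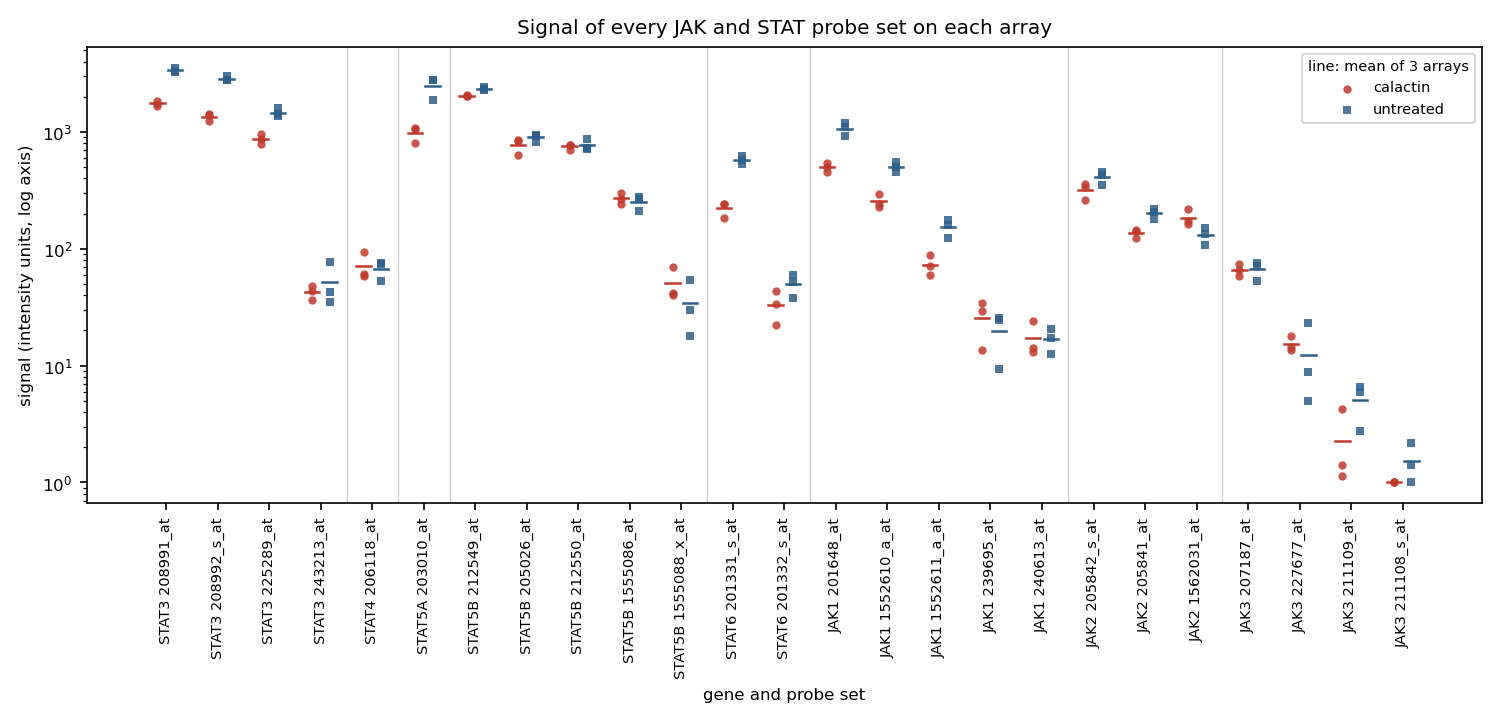
Signal of each of the 25 member probe sets on the 3 calactin arrays (circles) and the 3 untreated arrays (squares), in intensity units on a log axis, with the mean of each group as a line. For STAT3 208991_at the calactin arrays sit at 1679 to 1857 and the untreated arrays at 3257 to 3543, while the groups of STAT5B 212550_at overlap.

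STAT3, STAT5A and STAT5B are neighbours on chromosome 17, in the order STAT5B, STAT5A, STAT3 in the RefSeq annotation of GRCh38.p14, with no other annotated gene starting between them. The 250 bases before the transcript start are shown for these 3 genes and for STAT6 and JAK1, because 4 of the 5 genes fell together and STAT5B was not called. The sequences are RefSeq's, 5′ to 3′ on the gene's own strand. Capitals mark GC boxes, whose letters are GGGCGG, boxes named for their letters CCAAT, and a STAT6-type site, which is the STAT motif described after the sequences with a spacer longer by 1 base. Each was searched on both strands. The window of STAT3 lies at chr17:42388443-42388692 on the minus strand, that of STAT5A at chr17:42287189-42287438 on the plus strand, that of STAT5B at chr17:42276392-42276641 on the minus strand, that of STAT6 at chr12:57110290-57110539 on the minus strand and that of JAK1 at chr1:65067747-65067996 on the minus strand (GRCh38.p14). For STAT5A and JAK1, which have 3 annotated starts each, the farthest upstream is shown.
STAT3: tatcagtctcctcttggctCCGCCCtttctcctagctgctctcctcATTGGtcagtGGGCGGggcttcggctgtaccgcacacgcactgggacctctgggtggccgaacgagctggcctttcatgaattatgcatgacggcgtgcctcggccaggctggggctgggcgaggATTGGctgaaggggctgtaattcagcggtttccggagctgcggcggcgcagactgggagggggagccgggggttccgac
STAT5A: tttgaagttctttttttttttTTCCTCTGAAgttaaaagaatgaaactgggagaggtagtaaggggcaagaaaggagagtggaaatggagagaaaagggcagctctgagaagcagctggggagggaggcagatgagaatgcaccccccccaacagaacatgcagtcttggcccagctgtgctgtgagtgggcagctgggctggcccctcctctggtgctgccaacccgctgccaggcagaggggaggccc
STAT5B: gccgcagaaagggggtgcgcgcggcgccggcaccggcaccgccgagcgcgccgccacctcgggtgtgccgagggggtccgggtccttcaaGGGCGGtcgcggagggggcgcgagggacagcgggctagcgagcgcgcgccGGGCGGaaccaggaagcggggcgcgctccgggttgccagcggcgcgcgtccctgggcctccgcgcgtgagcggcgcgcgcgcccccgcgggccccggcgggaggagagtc
STAT6: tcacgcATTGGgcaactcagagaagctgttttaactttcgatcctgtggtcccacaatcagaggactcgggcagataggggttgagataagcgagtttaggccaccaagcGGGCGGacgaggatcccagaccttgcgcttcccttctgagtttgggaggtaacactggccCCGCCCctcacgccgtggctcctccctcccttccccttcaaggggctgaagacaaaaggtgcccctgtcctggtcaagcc
JAK1: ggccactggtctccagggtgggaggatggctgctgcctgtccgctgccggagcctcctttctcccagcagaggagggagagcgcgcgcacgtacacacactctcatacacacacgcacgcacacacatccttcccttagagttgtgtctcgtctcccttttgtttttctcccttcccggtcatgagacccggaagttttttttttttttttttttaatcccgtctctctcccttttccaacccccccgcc

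STAT3's window held 2 GC boxes and 2 CCAAT boxes, that of STAT6 2 GC boxes and 1 CCAAT box, and that of STAT5B 2 GC boxes. Over all 17 windows of the 9 genes, GC boxes were in 8, among them another window of STAT5A and another of JAK1, beside 42.6% of all windows, and CCAAT boxes in 2, beside 32%. STAT5B's window was the richest in G and C of the 5, at 82.0%, against 64.4% for STAT3, 58.4% for STAT6, 55.6% for JAK1 and 54.8% for STAT5A, where the median over 35116 windows of all genes was 58.0%. The STAT site with a spacing of 3 bases (TTCNNNGAA) was in 0 of the 17 windows of the 9 genes and in 6.57% of all windows. STAT5A's window held the spacing of 4 bases that STAT6 favours, 229 bases before the start, a motif in 5.38% of all windows. An AP-1 site (TGANTCA) was in 1 of the 17 windows, of STAT4, and in 6.57% of all, and an EGR site (GCGTGGGCG) in 0 of the 17 and 0.72% of all. The motifs may overlap, a match is a description of letters, and a window without one says nothing of binding elsewhere.

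STAT3 carries the signal of interleukin 6 and related cytokines. Probe set 208991_at read 1679, 1718 and 1857 with calactin, against 3257, 3543 and 3306 in untreated arrays. The groups lay far apart and each was tight. STAT3 fell by 0.94 on the log2 scale here (SE 0.07, n = 3 each; limma adjusted p = 0.000194), or 1.92-fold. A separate probe set, 208992_s_at, read 1421, 1397 and 1241 with calactin and 2799, 2986 and 2763 in untreated arrays, and STAT3 fell there by 1.07 (SE 0.08, adjusted p = 0.000177). The third, 225289_at, gave 968, 782 and 872 with calactin and 1434, 1587 and 1371 in untreated arrays, a log2 change of -0.74 ± 0.10 (adjusted p = 0.00186). All of these bright STAT3 probe sets put every calactin array below every untreated one. The dim 243213_at, between 36.5 and 48.3 with calactin and between 34.9 and 77.6 in untreated arrays, overlapped and was not called (log2 change -0.15, 95% interval -0.72 to 0.41). Scaling to the hybridisation spikes together with the replicate block ended the call of 208991_at (adjusted p = 0.0504), and 4 of 18 alternatives ended that of 225289_at.

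STAT5A and STAT5B encode near-identical factors that act downstream of the erythropoietin receptor, many other cytokine receptors and BCR-ABL1. STAT5A was read by a single probe set, 203010_at, with 1091, 810.0 and 1053 with calactin and 2798, 1859 and 2791 in untreated arrays. Untreated replicate 2 lay well below the other untreated arrays, yet above every calactin array. STAT5A fell by 1.31 (SE 0.18, n = 3 each; limma adjusted p = 0.00171), or 2.47-fold, and this call was lost in replicates 1 and 2 alone (log2 change -1.26, adjusted p = 0.0715). Over the alternatives its adjusted p ran up to that value.

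STAT5B had 5 probe sets and none was called, with 1 at an unadjusted p under 0.05. Its brightest, 212549_at, read 2015, 2061 and 2017 with calactin and 2277, 2419 and 2348 in untreated arrays. The groups did not overlap, but the difference was small: the log2 change was -0.21 ± 0.06 (95% interval -0.35 to -0.06, adjusted p = 0.0723). With the replicate number as a block it was called (adjusted p = 0.0362), and under poly-A spike scaling its sign turned (0.36). The others overlapped between the groups: 205026_at gave -0.21 ± 0.13, 212550_at -0.03 ± 0.10, 1555086_at 0.10 ± 0.14 and 1555088_x_at 0.45 ± 0.30. The last is dim, between 40 and 69.7 with calactin and between 18.0 and 54.1 in untreated arrays, and its suffix marks probes that may bind other transcripts. None of the 5 intervals reached below -0.50, so a fall of the STAT5A size lay outside them.

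STAT5A was set against STAT5B by the difference of their log2 signals within each array, which a common scaling of an array moves little. The pairs of genes were chosen after their values had been seen, so these differences are a description with no test. STAT5A minus STAT5B (203010_at and 212549_at) was -0.88, -1.33 and -0.93 with calactin and 0.30, -0.38 and 0.25 in untreated arrays. The difference was lower by 1.10 with calactin, and the groups did not overlap. STAT3 minus STAT5B (208991_at and 212549_at) was -0.26, -0.26 and -0.12 with calactin and 0.51, 0.55 and 0.49 in untreated arrays, and the change was -0.73. The plot of within-array differences shows the separation of the 3 pairs.

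**Figure D2:**
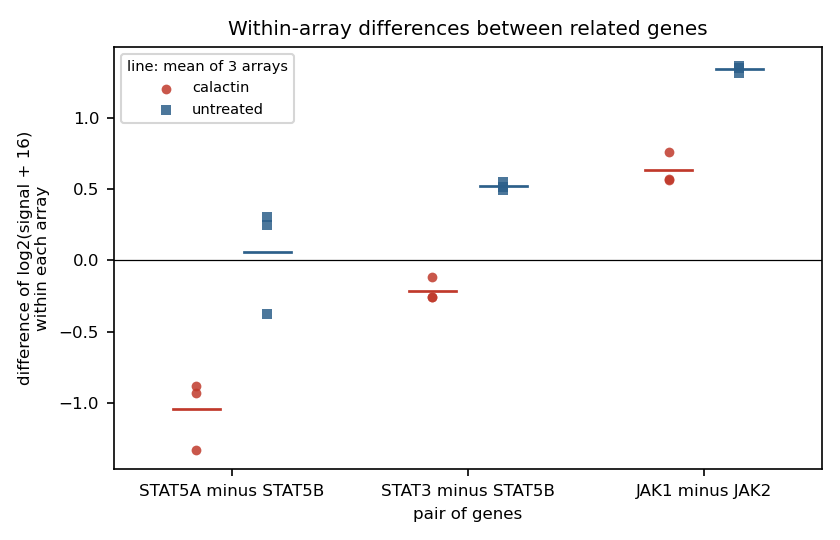
Difference of log2(signal + 16) between the representative probe sets of 2 genes within each array, for 3 pairs of genes; circles are calactin arrays, squares untreated arrays, and lines group means. In each pair the 3 calactin arrays lie below the 3 untreated arrays, for STAT5A minus STAT5B at -1.33 to -0.88 and -0.38 to 0.30.

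STAT6 answers interleukin 4 and interleukin 13. Its brighter probe set, 201331_s_at, read 241, 183 and 241 with calactin and 627, 533 and 574 in untreated arrays. This was the largest log2 change among the 25 members: STAT6 fell by 1.33 (SE 0.13, n = 3 each; limma adjusted p = 0.000436), or 2.51-fold, and it was called in all 18 alternatives run on it (highest adjusted p = 0.0376). The dim 201332_s_at, between 22.4 and 43.6 with calactin and between 37.7 and 59.6 in untreated arrays, gave -0.43 ± 0.23 and was not called (adjusted p = 0.309). Averaging both probe sets gave -0.88 for STAT6, still called (adjusted p = 0.00571). STAT4, which answers interleukin 12 in lymphocytes, was dim on its 1 probe set: 206118_at read 94.5, 60.8 and 58.8 with calactin and 52.5, 73.6 and 75.6 in untreated arrays. These values overlapped, with a log2 change of 0.06 ± 0.21 (95% interval -0.42 to 0.54).

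JAK1, the kinase of interferon, interleukin 6 family and common gamma chain receptors, fell on its 3 brighter probe sets. The brightest, 201648_at, read 451, 537 and 501 with calactin and 923, 1181 and 1096 in untreated arrays. JAK1 fell there by 1.08 (SE 0.11, n = 3 each; limma adjusted p = 0.000601), or 2.11-fold. Probe set 1552610_a_at, between 227 and 292 with calactin and between 457 and 557 in untreated arrays, gave -0.95 ± 0.13 (adjusted p = 0.00162). Probe set 1552611_a_at, between 59.9 and 88.2 with calactin and between 123 and 178 in untreated arrays, gave -0.93 ± 0.18 (adjusted p = 0.0105). All 3 separated the groups fully. The dim 239695_at and 240613_at, between 13.1 and 34.2 with calactin and between 9.30 and 25.8 in untreated arrays, overlapped, with log2 changes of 0.21 ± 0.28 and 0.01 ± 0.20. In replicates 1 and 2 alone, the JAK1 calls were lost, at adjusted p = 0.0501, 0.0742 and 0.0741 from the brightest probe set down. That of 1552611_a_at was lost in 3 of 18 alternatives, the others being scaling to the hybridisation or the poly-A spikes. Averaging the 5 JAK1 probe sets gave -0.55, still called (adjusted p = 0.00954).

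JAK2, the kinase of the erythropoietin and thrombopoietin receptors, gave no single direction. Its brightest probe set, 205842_s_at, read 259, 356 and 335 with calactin and 352, 452 and 431 in untreated arrays, which overlapped (log2 change -0.37 ± 0.15, adjusted p = 0.166). With the replicate block this probe set was called (adjusted p = 0.0157), and under poly-A spike scaling it had the other sign. Probe set 205841_at read 142, 146 and 123 with calactin and 179, 205 and 219 in untreated arrays. JAK2 fell there by 0.51 (SE 0.13, n = 3 each; limma adjusted p = 0.0336), a call lost in 11 of 18 alternatives, among them those without calactin replicate 1, 2 or 3 and without untreated replicate 2 or 3. Probe set 1562031_at lay the other way, at 164, 173 and 217 with calactin and 133, 150 and 108 in untreated arrays. It did not pass the test (log2 change 0.45 ± 0.16, adjusted p = 0.113), although it did under quantile normalization, with probe sets above the median signal alone and under poly-A spike scaling (lowest adjusted p = 0.0100). JAK1 minus JAK2 within an array (201648_at and 205842_s_at) was 0.76, 0.57 and 0.56 with calactin and 1.35, 1.36 and 1.31 in untreated arrays, a change of -0.71, described with no test.

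JAK3, which pairs with the common gamma chain of lymphocyte receptors, had 4 dim probe sets and none was called, with 0 at an unadjusted limma p under 0.05 and 0 called under any alternative. The brightest, 207187_at, read 65.2, 74.0 and 58.8 with calactin and 76.0, 53.1 and 71.0 in untreated arrays. The groups overlapped around the same value (log2 change -0.01 ± 0.18). On 211108_s_at, 4 of the 6 arrays were listed at 1, the value at which 1752 to 1918 probe sets of an array sit.

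**Figure D3:**
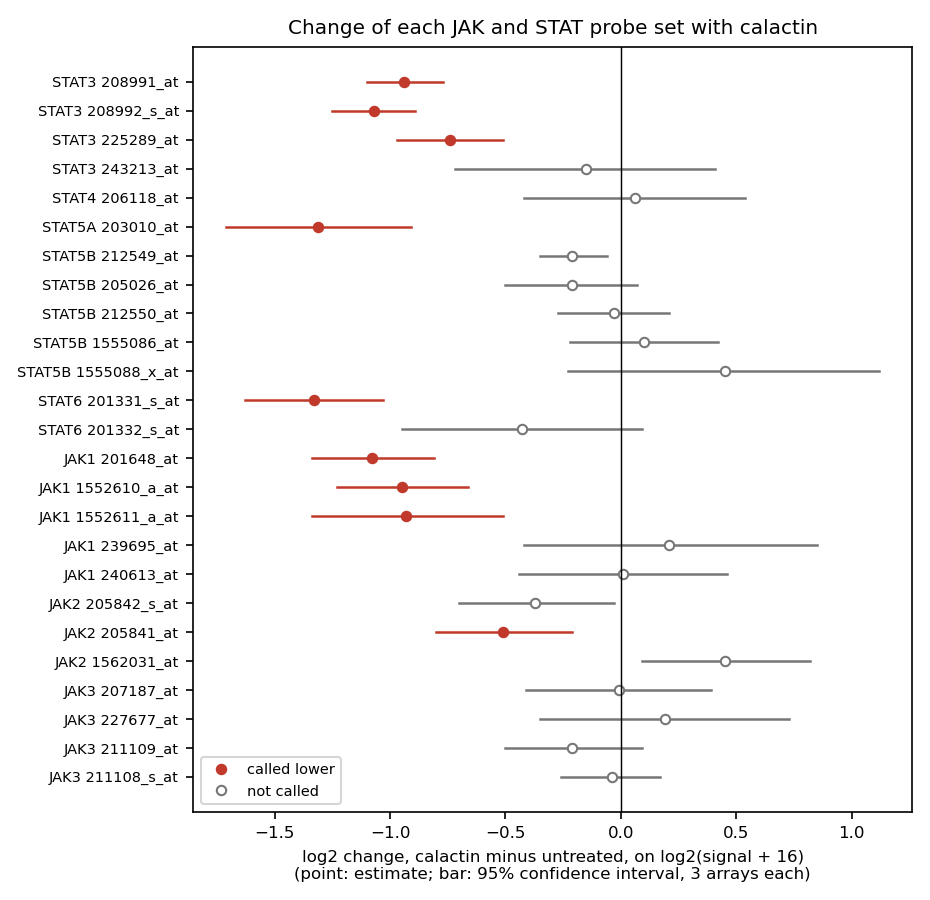
Log2 change, calactin minus untreated, of each of the 25 member probe sets on the log2(signal + 16) scale, with 95% confidence intervals from limma; filled points were called lower. The called points of STAT3, STAT5A, STAT6 and JAK1 lie between -1.33 and -0.74, that of JAK2 205841_at is at -0.51, and all STAT5B intervals but that of 212549_at include 0.

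Of the 25 members, 10 had all calactin arrays below all untreated arrays, where 19.0% of all probe sets did, and 1 had them all above, where 9.36% did. All 11 were above the median signal, where 30.4% and 14.2% of probe sets were so placed. Under poly-A spike scaling with the replicate block, the median log2 change of all probe sets was 0.25 and that of the members 0.14. There, 6 members were called lower, beside 2.53% of all probe sets, and 4 higher, beside 19.4%. The 6 were STAT3 208991_at and 208992_s_at, STAT5A, STAT6 201331_s_at, JAK1 201648_at and JAK1 1552610_a_at, with log2 changes of -0.76 to -0.37. The 4 were JAK2 1562031_at and STAT5B 212550_at, 1555086_at and 1555088_x_at, at 0.52 to 0.95.

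**Figure D4:**
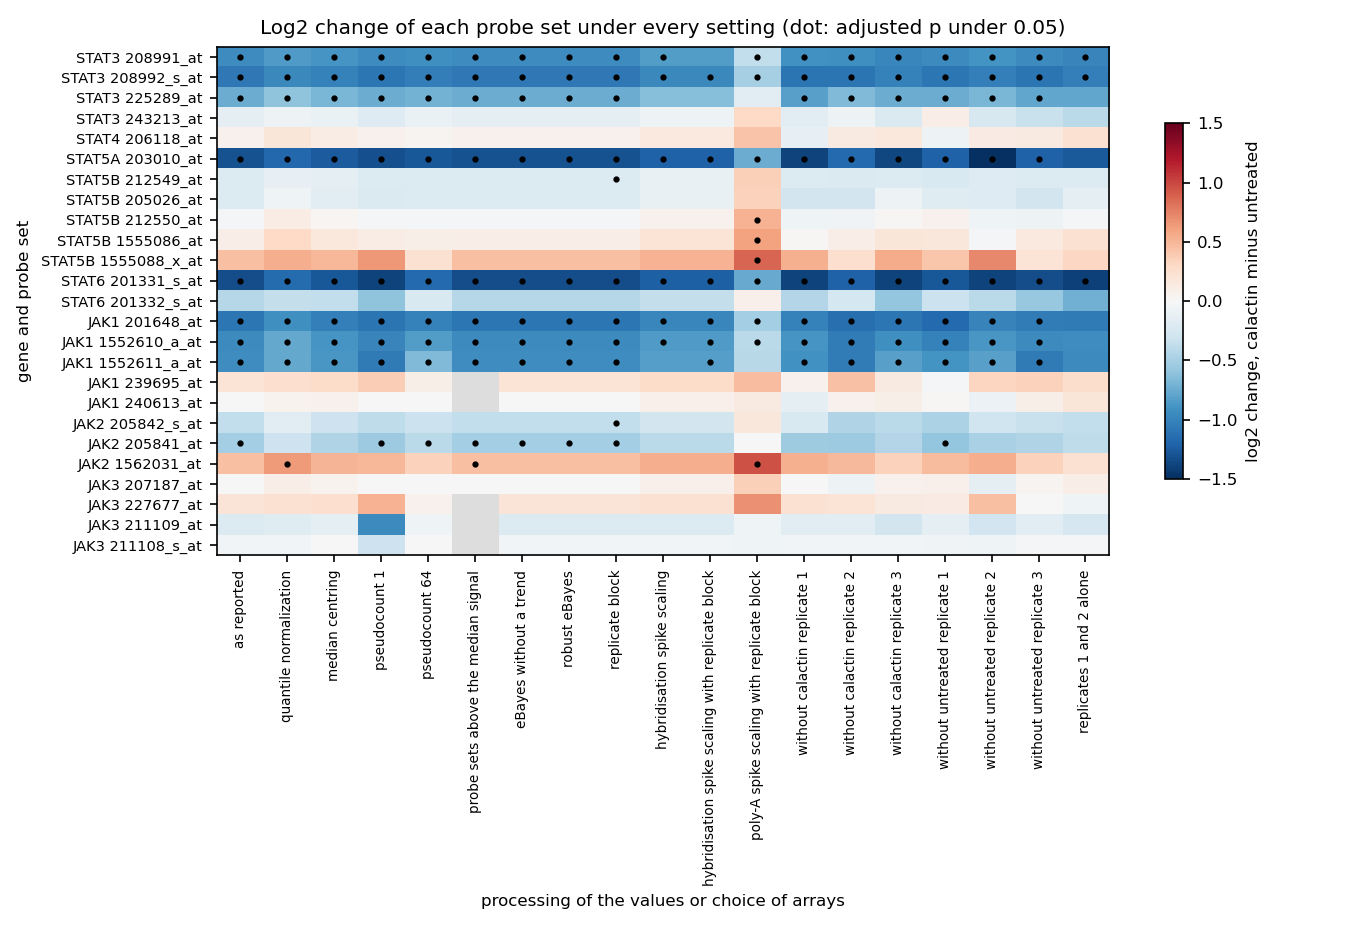
Log2 change (colour) of each member probe set, down the side, as reported and under each of 18 alternatives, along the bottom; a dot marks an adjusted p under 0.05 and grey a probe set that the filter left out. STAT3 208992_s_at and STAT6 201331_s_at carry a dot in every column, and the poly-A column is shifted upward in every row but that of JAK3 211108_s_at.

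STAT6 201331_s_at, the called member with the largest change, was set against 12558 other genes above the median signal by the root mean square difference of the log2 signals of the 6 arrays, each taken relative to its untreated mean. The closest were the probe set annotated to MIR142, at a difference of 0.062, then ATP8B2, a phospholipid flippase gene, at 0.072, and CEP55, a gene of the last step of cell division, at 0.090. The MIR142 probe set read 118, 94.8 and 136 with calactin and 330.0, 295 and 300.0 in untreated arrays. A probe set for messenger RNA does not measure the mature microRNA. Averaging the probe sets of each gene gave log2 changes of -1.35 for MIR142, -0.49 for ATP8B2 and -1.32 for CEP55.

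Other genes of the pathway were taken from 8 lists, each gene by its brightest probe set. Of 191 such genes, 13 rose and 22 fell, where 4.37% and 15.1% of 19775 genes did by the same rule. Their median log2 change was -0.06, and 125 of the 191 lay above the median signal. Without adjustment, 21 and 43 had a p under 0.05. In replicates 1 and 2 alone, 4 rose and 8 fell. The matching shares of all genes were not counted, for the unadjusted counts or for these. All calactin arrays lay below all untreated arrays for 45 of the 191 and above them for 24, where 24.4% and 10.3% of all genes did so.

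Of 37 cytokine receptor genes, 6 fell, 1 rose and 30 were not called (median -0.21). Only 21 of the 37 lay above the median signal. Among those that fell, IL15RA, the private chain for interleukin 15, read 104, 118 and 118 with calactin and 211, 261 and 235 in untreated arrays (log2 change -0.96 ± 0.13, limma adjusted p = 0.00170). IFNGR2, the signalling chain of the interferon gamma receptor that brings JAK2, gave -0.63 ± 0.08, IL10RB, shared by interleukin 10 family receptors, -0.64 ± 0.10, and IL23R, a chain of the interleukin 23 receptor, -0.81 ± 0.10. The calls of IFNGR2 and IL10RB were each lost in 4 of 19 alternatives and that of IL23R in 3, and under poly-A spike scaling the log2 changes were -0.07, -0.09 and -0.25. The IL15RA call was lost in replicates 1 and 2 alone. IL6ST, the gp130 chain through which interleukin 6 reaches JAK1 and STAT3, was the receptor gene that rose, by 0.99 ± 0.19 (adjusted p = 0.00909), and is named after its value was seen. Leaving out calactin replicate 2 or untreated replicate 3 ended that call (highest adjusted p = 0.183 over the alternatives), and averaging the probe sets of IL6ST gave 0.46. EPOR, the erythropoietin receptor gene, read 302, 348 and 268 with calactin and 287, 260.0 and 274 in untreated arrays and was not called (0.14 ± 0.12), on a probe set whose suffix marks shared sequence.

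Of 28 cytokine genes, IL6 rose, IL23A fell and 26 were not called. Only 8 of the 28 lay above the median signal, so a gene not called is not shown to be unchanged. IL6, an activator of STAT3, read 135, 154 and 120.0 with calactin and 46.1, 48.8 and 41.2 in untreated arrays, a rise of 1.31 ± 0.15 (limma adjusted p = 0.000907). IL23A, a subunit of interleukin 23, read 100.0, 107 and 136 with calactin and 375, 344 and 369 in untreated arrays (-1.55 ± 0.13, adjusted p = 0.000251). Averaging all IL23A probe sets ended the call, at -0.29.

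Of 22 inhibitor and phosphatase genes, 3 rose, 1 fell and 18 were not called (median 0.11). The 3 were feedback genes of the SOCS family. SOCS1 read 510.0, 490.0 and 614 with calactin and 137, 139 and 148 in untreated arrays, and rose by 1.81 ± 0.12 (limma adjusted p = 0.000126), or by 0.74 when its probe sets were averaged. SOCS2 rose by 0.66 ± 0.08 and CISH by 0.70 ± 0.17, a CISH call lost in 7 of 19 alternatives, among them those without calactin replicate 1, 2 or 3 and without untreated replicate 1. The suffix of the CISH probe set marks probes that may bind other transcripts. SOCS3 was not called (-0.35 ± 0.19). PTPRC, the CD45 phosphatase, fell by 0.97 ± 0.10, or by 0.46 when its probe sets were averaged.

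Of 26 adaptor and nuclear partner genes, 5 rose, 3 fell and 18 were not called (median 0.07). NMI, whose protein binds STATs, fell by 0.99 ± 0.11. CREBBP and NCOA1, coactivators of STAT factors, rose by 0.88 ± 0.12 and 0.85 ± 0.13, while PIK3R3, which encodes a PI3 kinase regulator, rose by 1.71 ± 0.23. Averaging the probe sets of CREBBP gave 0.48, still called. The calls of CREBBP, NCOA1 and PIK3R3 were lost in replicates 1 and 2 alone. As for CISH, the NCOA1 probe set has a suffix that marks probes that may bind other transcripts. IRF9, the DNA-binding partner in the interferon complex, read 206, 198 and 154 with calactin and 136, 155 and 138 in untreated arrays and was not called (0.34 ± 0.14), but was called higher under quantile normalization (0.54) and poly-A spike scaling (0.80).

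Target genes went both ways. Of 20 STAT5 targets, 3 rose, CISH, SOCS2 and BCL6 (named after its value was seen), and 6 fell (median -0.06). PIM1, a kinase gene and STAT5 target, read 4940, 4908 and 5025 with calactin and 4749, 2798 and 4644 in untreated arrays, and was not called (0.33 ± 0.18). EGR1, ID1, SPRED2 and TFRC, which other pathways also control, fell by 4.53 ± 0.40, 2.16 ± 0.22, 0.97 ± 0.12 and 0.55 ± 0.07. TFRC was at 0.02 under poly-A spike scaling and its call was lost under hybridisation spike scaling with or without the block. Averaged probe sets gave -0.43 for SPRED2 and -0.36 for TFRC. Of 19 STAT3 targets, 3 rose and 5 fell (median -0.13). JUNB, a partner in AP-1, read 49.0, 146 and 135 with calactin and 688, 589 and 735 in untreated arrays, a log2 change of -2.55 ± 0.31. FOS fell by 2.78 ± 0.42 and MCL1, a survival gene, by 0.66 ± 0.10, while BIRC5, the survivin gene, rose by 0.61 ± 0.07. The MCL1 call was lost in 4 of 19 alternatives, with a log2 change of -0.09 under poly-A spike scaling, and the BIRC5 call under hybridisation spike scaling with or without the block (highest adjusted p = 0.177). Those of FOS and JUNB were lost in replicates 1 and 2 alone.

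Of 38 interferon-stimulated genes, 0 rose and 1 fell by limma's adjusted test, and 1 and 5 had an unadjusted p under 0.05 (median -0.03). Only 20 of the 38 lay above the median signal, which limits what the others can show. ISG15 fell by 0.32 ± 0.08 (adjusted p = 0.0369), which was called in 5 of 19 alternatives and turned to 0.23 under poly-A spike scaling. Leaving out any 1 of the 6 arrays ended that call. Of 16 targets of STAT6 and STAT4, SOCS1 and CISH rose and TGM2, a transglutaminase gene, fell by 0.48 ± 0.10. Only 8 of the 16 lay above the median signal. The TGM2 call was kept in 13 of 19 alternatives. It was lost without calactin replicate 3, in replicates 1 and 2 alone and under hybridisation spike scaling with or without the block. Averaging its probe sets also ended it (-0.24), and under poly-A spike scaling the change was 0.08.

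**Figure D5:**
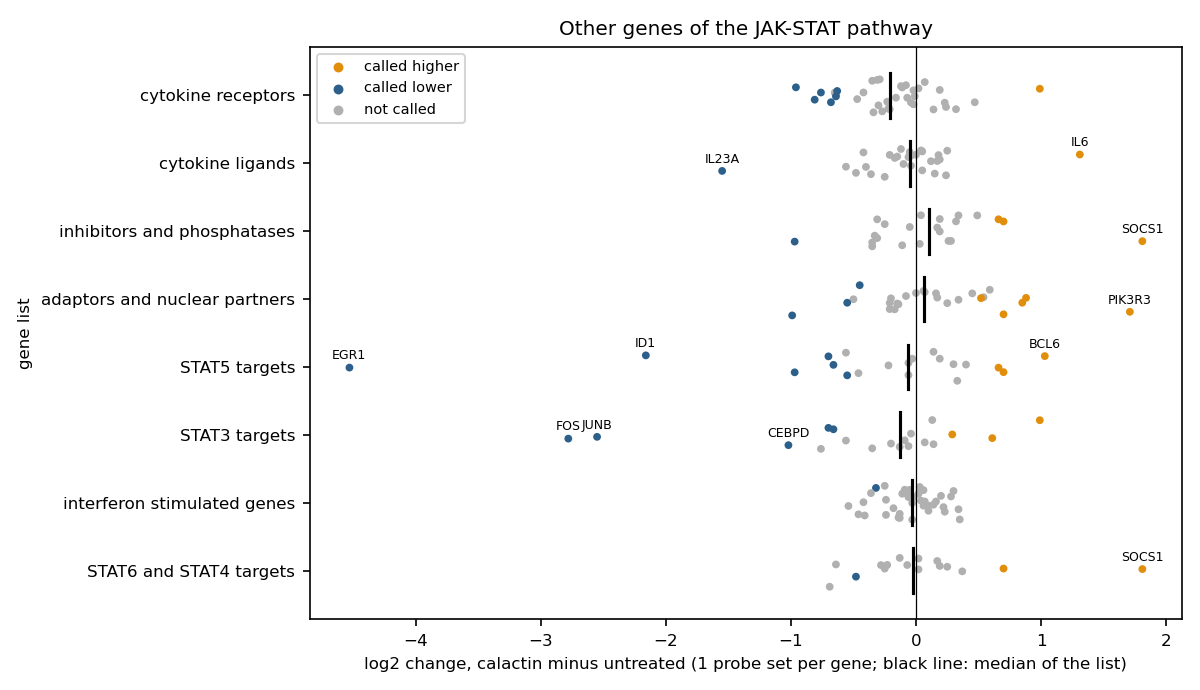
Log2 change, calactin minus untreated, of each measured gene in 8 lists of the JAK-STAT pathway (1 probe set per gene), with genes called higher, called lower and not called in different colours and the median of each list as a black line; genes past 2-fold that were called are named. Medians lie between -0.21 and 0.11, SOCS1 is at 1.81 and EGR1 at -4.53.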

How the data were processed

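K562 RNA was hybridised to 1-colour Affymetrix arrays, 3 of calactin-treated and 3 of untreated cells. Per the labels' protocols, biotinylated cRNA was made from total RNA. The deposited values are linear intensities made by the authors. Their summary algorithm, background correction and scaling were not given in the sources used here. Unequal array medians show that the listed probe set values were not quantile normalized, and any earlier steps are unknown.

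Of 54675 probe sets, 62 controls were left out. Names came from the platform annotation, with 41091 probe sets under 1 symbol, and no gene was named from the 1801 with several. limma 3.58.1 in R 4.3.3 (lmFit, eBayes with a variance trend) compared calactin with untreated arrays on log2(intensity + 16) over 54613 probe sets, two-sided, with Benjamini-Hochberg adjustment and a threshold of 0.05. There were 4 residual degrees of freedom, so the number of arrays limits the precision. A pathway gene was read from its probe set of highest mean. The fit was tested on simulated data. Plots used matplotlib 3.10.9.

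The members and lists were chosen with earlier results of these data known. Named pathway genes were the up to 4 called genes of smallest p per list, with EPOR, SOCS3, CISH, PIM1 and IRF9, and the 3 genes most like the most changed member. Alternatives were quantile normalization, median centring, pseudocounts of 1 and 64, a filter at the median signal, eBayes without a trend or robust, a replicate block, scaling to hybridisation or poly-A spikes, each array left out, averaging of all probe sets per gene and, chosen after seeing the data, replicates 1 and 2 alone.

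Over 27306 probe sets above the median signal, arrays with the same number deviated together from the mean of their group, with correlations of 0.416, 0.322 and 0.243 for numbers 1, 2 and 3, and at most -0.009 with another number. The numbers come from the sample titles. The reported fit left this pairing out, so its p-values ignore it. Pairing entered only as the replicate block among the alternatives.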

Additional observations from a re-analysis of the deposited data

How the results depend on the processing

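The bright probe sets of STAT3, STAT5A, STAT6 and JAK1 were lower with calactin under all 18 alternatives. Between 6 and 11 members were called lower under every alternative but replicates 1 and 2 alone, which gave 3. Leaving out 1 array gave 8 to 9. The replicate block gave 11, and it called 12.9% of all probe sets lower, against 10.3% as reported. Members called higher numbered 1 under quantile normalization, 1 with probe sets above the median signal and 4 under poly-A spike scaling with the replicate block. The replicate block called STAT5B 212549_at and JAK2 205842_s_at lower and changed no other member's call. Pathway genes under it numbered 17 higher and 33 lower, with no matching share of all genes counted.

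Of all probe sets, 2011 were called higher and 5600 lower; quantile normalization gave 3382 higher. Hybridisation spike scaling gave 1123 higher and 2307 lower, or 1062 and 2160 once the replicate block was added. Poly-A spike scaling gave 10582 and 1384, and replicates 1 and 2 alone 340 and 1279. Lower calls made 73.6% of all as reported, 54.7% under quantile normalization and 11.6% under poly-A spike scaling. Leaving out 1 array gave 1222 to 1949 higher and 3640 to 4832 lower. Pathway genes called higher were 13, and 22 under quantile normalization, 8 under hybridisation spike scaling with the block, 56 under poly-A spike scaling and 4 in replicates 1 and 2 alone, with 10 to 15 leaving out 1 array. Those called lower were 22, and 11 under hybridisation spike scaling, 10 when the block was added to it, 10 under poly-A spike scaling and 8 in replicates 1 and 2 alone, with 16 to 21 leaving out 1 array. Replicates 1 and 2 alone, and each fit without 1 array, used fewer arrays. For each replicate number the poly-A spikes read lower with calactin than untreated, so scaling to them raised calactin signals relative to untreated ones. Why the spikes differed was not tested, nor was the cause for the other settings.

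Signs turned for values that were not called as reported. Under poly-A spike scaling they were 0.17 for JAK2 205842_s_at, 0.36 for JAK3 207187_at, 0.30 for STAT3 243213_at, 0.52, 0.34 and 0.36 for STAT5B 212550_at, 205026_at and 212549_at, 0.08 for STAT6 201332_s_at and 0.17 for SOCS3. Signs also turned there for the called ISG15 (0.23), TFRC (0.02) and TGM2 (0.08). JAK3 207187_at was 0.05 after median centring, 0.10 under quantile normalization and in replicates 1 and 2 alone, and 0.08 when scaled to hybridisation spikes, whether or not the block was fitted. STAT5B 212550_at was 0.03 after median centring, 0.11 under quantile normalization and 0.07 in both fits scaled to hybridisation spikes. JAK3 211108_s_at was 0.01 under median centring and JAK3 227677_at -0.06 in replicates 1 and 2 alone. Averaging all probe sets per gene gave 0.02 for STAT5B and -0.02 for EPOR, and smaller called changes of -0.55 for JAK1, -0.72 for STAT3 and -0.88 for STAT6.

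Leaving out 1 array, the log2 change ran from -0.14 to 0.09 for JAK1 240613_at, -0.02 to 0.44 for JAK1 239695_at, -0.0006 to 0.45 for JAK3 227677_at, -0.13 to 0.08 for JAK3 207187_at, -0.33 to 0.10 for STAT3 243213_at, -0.12 to 0.16 for STAT4 206118_at, -0.02 to 0.18 for STAT5B 1555086_at and -0.08 to 0.06 for STAT5B 212550_at. Low signals limit what the dim probe sets can show, those of JAK3 and STAT4 included. JAK3 207187_at (means of 66.0 with calactin and 66.7 in untreated arrays) and STAT4 206118_at (71.3 and 67.2) still lay above the array median. In the same order the called JAK1 1552611_a_at averaged 73.0 and 153.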

Other observations

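On several bright probe sets untreated replicate 2 stood apart from the other untreated arrays. For STAT5A it read 1859 against 2798 and 2791, for PIM1 2798 against 4749 and 4644, for CISH 1220 against 1862 and 1972, for ID1 2251 against 3775 and 3912 and for EGR1 2924 against 8428 and 9684. These genes were picked after their values had been seen. On the STAT3 probe set 208991_at the same array was the highest of the untreated arrays, at 3543 against 3257 and 3306.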
